A study of Mus musculus with 2 samples.

Results

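The respiratory chain genes described here are the subunits, and the assembly factors of complex I, that carry the mouse symbols Ndufa, Ndufb, Ndufc, Ndufs, Ndufv, *Sdha* to *Sdhd*, Uqcr, Cox4 to Cox8 and Atp5, with the mitochondrial symbols mt-Nd, mt-Co, *mt-Cytb* and mt-Atp. Of 32285 genes in the deposited matrices, 107 had such a symbol, and the 106 with at least 20 UMIs over both libraries were kept. Nuclear DNA encodes 93 of them and mitochondrial DNA encodes 13. The nuclear members fell by symbol into 39 for complex I, 8 assembly factors of complex I, 4 for complex II, 8 for complex III, 17 for complex IV and 17 for complex V. The mitochondrial members were 7 for complex I, 1 for complex III, 3 for complex IV and 2 for complex V. *Cox8c* had 0 UMIs and was left out, while the members nearest to the limit were *Cox7b2* with 40 UMIs and *Cox8b* with 616 UMIs.

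Mouse eyes at E17.5 gave 2 pooled libraries of single cells, 1 from *Myrf* humWT/humWT embryos and the other from embryos with *Myrf* humdG/humdG. Both alleles carry the human last exon of MYRF in place of the mouse exon, so the controls are humanized too, and the humdG allele also carries a C-terminal frameshift. The labels give 3 pooled eye cups per library with cornea, lens and optic nerve taken off, in a protocol that speaks of conditional KO mice, whereas the study's methods give 3 mice per genotype and leave the cornea on, so the dissection is uncertain. With 1 library a genotype, nothing shows the spread between animals and the genotypes were not tested against each other. Intervals in parentheses are at 95% and measure the error of counting alone. Unique molecular identifiers (UMIs) count each captured transcript once, near its 3′ end, and levels are given as counts per 1000000 UMIs of the same cells (CPM).

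The libraries held 17421 and 19565 barcodes (humWT/humWT first, as in every pair below), of which 16166 and 18173 cells with 119953369 and 107802949 UMIs were kept. Median depth was 3785 and 2625 UMIs per cell, and 102 barcodes occurred in both libraries. Clustering without the respiratory chain genes gave 24 clusters, and 16 of them were grouped into 14 classes by marker genes. The class that resembled the retinal pigment epithelium (RPE), called RPE-like, had 560 and 401 cells. All 10 RPE markers had UMIs in it, with a summed level of 18105 and 17820 CPM, but *Rpe65* and *Best1*, which mark mature RPE, had 3 UMIs each in each library. Its larger cluster, of 487 and 386 cells, raised 8 RPE markers and also 5 markers of another cell type. Melanocyte markers summed to 877 and 938 CPM in the RPE-like class, against 142 and 109 CPM in all cells. *Myrf*, the targeted gene, was at 282 and 198 CPM in RPE-like cells, and counts near the 3′ end cannot check a frameshift in the last exon. The amacrine and horizontal-like class also raised 7 markers of retinal ganglion cells beside 10 of its own. The retinal progenitor-like class, of 654 and 1115 cells, was led by histone genes, with *Ube2c* and *Cenpf* among its 20 leading genes. Another cluster, of 1131 and 1893 cells, was led by *Tafa1* and *Cntn6*, with *Crb1* and *Hes5* among its leading genes. It took no name and stands in no class, so retinal progenitor-like values need not hold for it.

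Oxidative phosphorylation passes electrons from NADH through complex I, or from succinate through complex II, to ubiquinone, then through complex III and cytochrome c to complex IV, which reduces oxygen. Complexes I, III and IV pump protons, and complex V, the ATP synthase, uses the gradient to make ATP. Mitochondrial DNA encodes core subunits of complexes I, III, IV and V, nuclear DNA encodes the others and all of complex II, and the mitochondrial mRNAs are cut from long common transcripts. The RPE is known for its dependence on oxidative metabolism, whereas retinal progenitors and photoreceptors are known for aerobic glycolysis. The factors NRF1, GABP (an ETS family factor), YY1 and the estrogen-related receptors are known regulators of many nuclear respiratory chain genes.

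RefSeq promoters on GRCm38.p6, from 250 bases before to 50 bases after the start, were at hand for 75 of the 93 nuclear members, and they were searched on both strands for 5 short motifs. A gene with more than 1 window was counted once if any of them held the motif. The NRF1 motif, the letters GCGCA and GCGC with any base between them, occurred in 19 members, 25.3%, against 5.19% of all 27025 genes with a promoter. The ETS motif CCGGAAG also occurred in 19 members, 25.3% against 9.93%. The YY1 motif AAGATGGC was in 10 members, 13.3% against 3.19%, and the estrogen-related receptor motif AAGGTCA was in 8 members, 10.7% against 5.38%. The hypoxia response core ACGTG was in 17 members, 22.7% against 21.8% of all genes with a promoter. At least 1 of the first 4 motifs was present in 42 members, 56.0% against 21.1% of all genes with a promoter, and 4 members held both the NRF1 and the ETS motif. Matches are letters in a window and were not tested as binding sites. The genes compared with were not matched to the members for expression or base composition. Members with more than 1 promoter window were passed over for display. The NRF1 motif and the bases around it are shown, on the gene's own strand with the motif in capitals, for the 6 other members with the most UMIs that held it before their start.
Atp5g2: ctccggccGCGCATGCGCagagcctt
Atp5h: ccccgacgGCGCAGGCGCcgcgcccg
Atp5k: tcactgcgGCGCATGCGCctttctgg
Ndufs5: tgcttgctGCGCAGGCGCagacccgc
Ndufb4: tcatatccGCGCAGGCGCagatgtgc
Cox6a1: gataaagtGCGCAGGCGCtggagttc
These windows lie on the minus strand at chr15:102671072-102671097, chr11:115420043-115420068, chr5:108434432-108434457, chr4:123718267-123718292, chr16:37654373-37654398 and chr5:115349058-115349083, in that order. *Atp5g2*, *Atp5h* and *Atp5k* belong to complex V, *Ndufs5* and *Ndufb4* to complex I, and *Cox6a1* to complex IV.

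The ETS motif is shown in the same way, in capitals, for the 6 members with the most UMIs chosen by the same rule. CTTCCGG is the motif read on the other strand.
Atp5e: ggccacagCTTCCGGtagccgct
Atp5h: ggagagaaCTTCCGGcaactctc
Atp5l: tcaccgatCTTCCGGaccaacat
Cox6b1: tctcgcagCTTCCGGccagtcgg
Uqcr11: tctcctccCCGGAAGtagatgtc
Ndufb7: tagatgacCCGGAAGacactgaa
They lie at chr2:174464189-174464211, chr11:115419943-115419965, chr9:44920940-44920962, chr7:30626128-30626150 and chr10:80406873-80406895 on the minus strand and at chr8:83566730-83566752 on the plus strand. *Atp5h* carried both motifs. *Cox4i2* and *Ndufa4l2*, the members with the largest ratios between genotypes in RPE-like cells below, were among the 18 nuclear members without a promoter at hand.

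The levels of the nuclear members differed several-fold among the classes. Their summed level in humWT/humWT was 28856 CPM in muscle precursor-like cells, 27486 in neural crest and glia-like cells, 26849 in RPE-like cells and 25042 in retinal progenitor-like cells. It was 9529 CPM in muscle fibre-like cells and 6200 in the red blood cell-like class, the lowest of the 14 classes. In humdG/humdG the RPE-like class came first with 30209 CPM, before muscle precursor-like cells with 28105, and red blood cell-like cells were again lowest with 7288. RPE-like cells had the highest level of 27 nuclear members in humWT/humWT and of 35 in humdG/humdG, muscle precursor-like cells of 27 and 24, and red blood cell-like cells had the lowest level of 85 and 86 of the 93. Red blood cell markers summed to 471744 and 569021 CPM in the red blood cell-like class. They lower the CPM and share of every other gene there, and its rank without them was not computed. Examples of members highest in RPE-like cells of both libraries were *Cox8a* (1426 and 1459 CPM) and *Ndufa4* (879 and 943 CPM). The order by detection differed for *Cox8a*. In cells thinned to 1000 UMIs, 48.2% and 57.1% of RPE-like cells had a *Cox8a* UMI, against 66.4% and 74.6% of muscle precursor-like cells. The distance between RPE-like and retinal progenitor-like cells changed with thinning. It was a log2 ratio of 0.10 in humWT/humWT and 0.36 in humdG/humdG, and it became −0.20 and 0.08 when each cell was thinned to 1000 UMIs, at median depths of 3866 and 2585 UMIs in RPE-like against 12018 and 11581 in retinal progenitor-like cells.

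**Figure D1:**
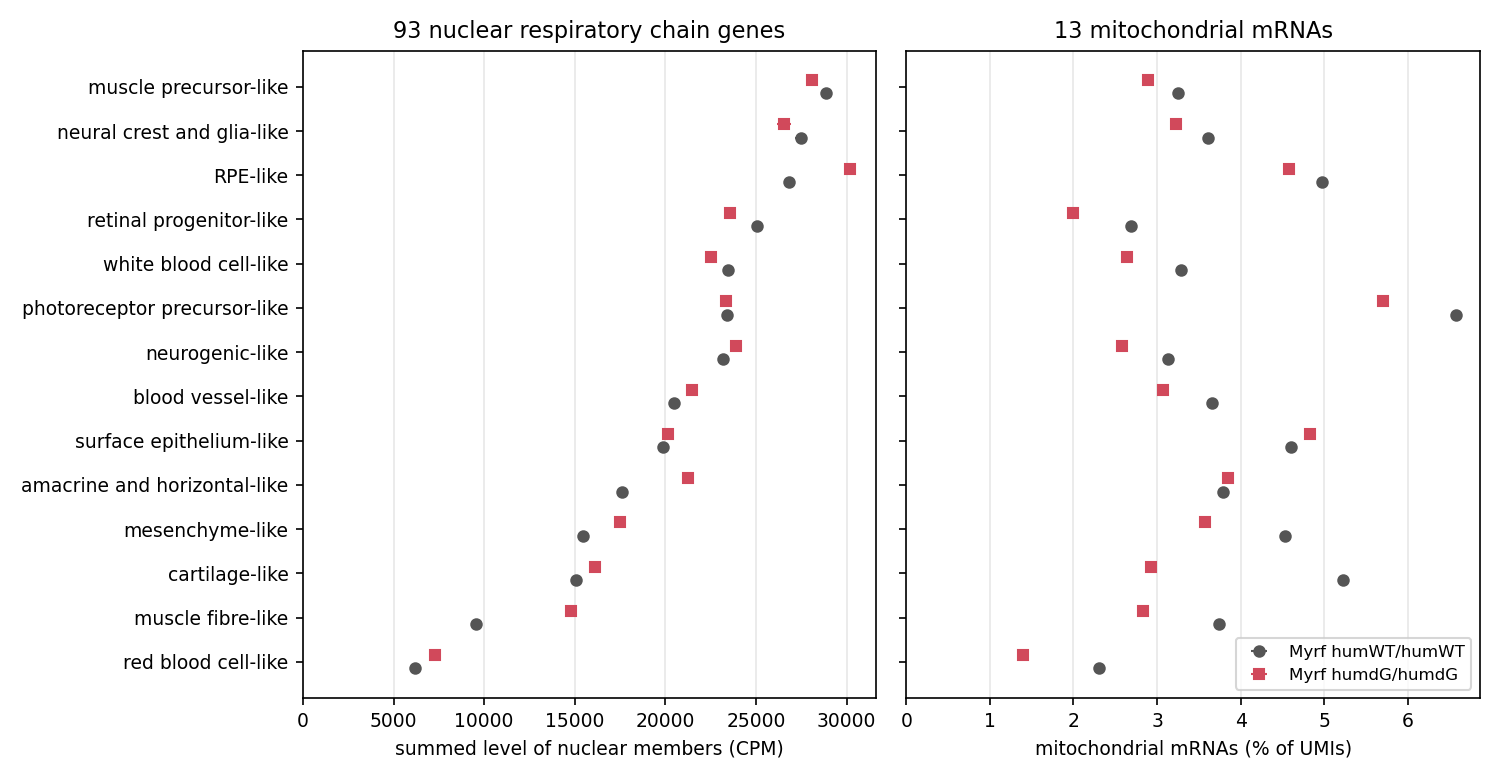
Summed level of the 93 nuclear members (left, CPM) and share of all UMIs from the 13 mitochondrial mRNAs (right, %) in the 14 classes, for the humWT/humWT library (grey circles) and the humdG/humdG library (red squares). Bars are 95% counting intervals, mostly hidden by the symbols. The mitochondrial share is lower in humdG/humdG in 12 of 14 classes, and the widest gap of the nuclear sums is in muscle fibre-like cells.

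Complexes I, V and IV kept this order of summed level in both RPE-like and retinal progenitor-like cells. In RPE-like cells, complex I summed to 9567 and 11005 CPM, complex V to 7763 and 8749 CPM, complex IV to 6055 and 6759 CPM, complex III to 2818 and 3027 CPM and complex II to 397 and 391 CPM. In retinal progenitor-like cells, complex I was at 9323 and 8723 CPM, close to the RPE-like level in humWT/humWT, while complex IV was at 5717 and 5377 CPM and complex V at 7068 and 6721 CPM. The assembly factors of complex I were higher in retinal progenitor-like cells, at 353 and 325 CPM, than in RPE-like cells, at 249 and 277 CPM. White blood cell-like cells had the most complex II, at 439 and 427 CPM. *Sdha*, the flavoprotein subunit of complex II, varied least among the classes, by 2.89 times between the highest and the lowest class over both libraries together. Its lowest class in each library was the red blood cell-like one, where the markers of that class lower all other levels. These sums count 3′ tags and are no measure of assembled complexes.

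Mitochondrial mRNAs followed another order than the nuclear members. They took 6.58% and 5.70% of UMIs in photoreceptor precursor-like cells, which had the highest level of 11 of the 13 in humWT/humWT and of 10 in humdG/humdG. The next classes in humWT/humWT were cartilage-like cells with 5.23% and RPE-like cells with 4.97%. Retinal progenitor-like cells were at 2.69% and 2.00%, and red blood cell-like cells at 2.31% and 1.40%. Muscle precursor-like cells, first for nuclear members in humWT/humWT, had 3.25% and 2.89%. Across the 14 classes, Pearson's r between the nuclear sum and the mitochondrial share was 0.12 in humWT/humWT and 0.41 in humdG/humdG, a description over classes that share a library. Per cell, the median mitochondrial share was 3.42% and 2.96% in RPE-like cells and 4.11% and 4.38% in photoreceptor precursor-like cells.

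The 5 members whose level differed most among the classes were all tissue isoforms. Over both libraries together, *Cox4i2* differed by 35.2 times, *Cox8b* by 25.5 times, *Cox7a1* by 25.03 times, *Ndufa4l2* by 20.3 times and *Cox6a2* by 11.5 times. The next were *Ndufa8*, a complex I subunit highest in blood vessel-like cells (326 and 310 CPM, with 31.7 and 32.1 CPM in the red blood cell-like class), and the assembly factors *Ndufaf3* and *Ndufaf7*, highest in neurogenic-like and retinal progenitor-like cells. *Cox8b*, *Cox7a1* and *Cox6a2* had only 616, 800 and 633 UMIs in all barcodes, and their lowest classes had 1 to 3 UMIs over both libraries.

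*Ndufa4l2* (chr10:127514967-127517154, GRCm38) and *Cox4i2* (chr2:152754173-152765037, GRCm38) are hypoxia-inducible relatives of *Ndufa4* and *Cox4i1*. NDUFA4 was named as a complex I subunit and is now counted with complex IV, and COX4I1 is the common form of the complex IV subunit whose alternative form is COX4I2. Among the named classes, *Ndufa4l2* was highest in retinal progenitor-like cells, at 819 CPM in humWT/humWT and 738 CPM in humdG/humdG. It was at 402 and 334 CPM in neurogenic-like cells, 322 and 266 CPM in photoreceptor precursor-like cells and 290 and 585 CPM in surface epithelium-like cells. RPE-like cells had 48.1 and 121 CPM, close to red blood cell-like cells with 51.3 and 105 CPM. *Cox4i2* was at 276 and 295 CPM in retinal progenitor-like cells, 101 and 89.9 CPM in photoreceptor precursor-like cells, 23.0 and 58.7 CPM in RPE-like cells and 16.1 and 38.4 CPM in the red blood cell-like class.

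As a share of the UMIs of both partners, *Ndufa4l2* made up 59.3% and 59.4% of *Ndufa4* plus *Ndufa4l2* in retinal progenitor-like cells but 5.19% and 11.4% in RPE-like cells. *Cox4i2* made up 29.9% and 32.6% of *Cox4i1* plus *Cox4i2* in retinal progenitor-like cells, 3.37% and 7.28% in RPE-like cells and 0.589% and 1.66% in muscle precursor-like cells. Capture differs between genes, so these shares compare classes and are not ratios of proteins. The common partners varied less, with *Cox4i1* at 660 and 749 CPM in RPE-like cells and highest in muscle precursor-like cells. Each cell's counts gave the same picture, since 96.8% and 96.8% of retinal progenitor-like cells had an *Ndufa4l2* UMI, against 23.2% and 36.4% in the RPE-like class and 18.2% and 33.2% in the red blood cell-like class at a median depth of 4017 and 4165 UMIs. After thinning to 1000 UMIs these shares were 52.5% and 47.7%, 6.79% and 15.04%, and 6.49% and 12.8%. The RPE-like share of *Ndufa4l2* thus lay near that of a class not known to express the gene. Whether these UMIs stem from the RPE-like cells themselves was not tested. For *Cox4i2* the thinned shares were 24.7% and 24.3% in retinal progenitor-like, 1.96% and 9.02% in RPE-like and 1.42% and 4.12% in red blood cell-like cells.

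**Figure D2:**
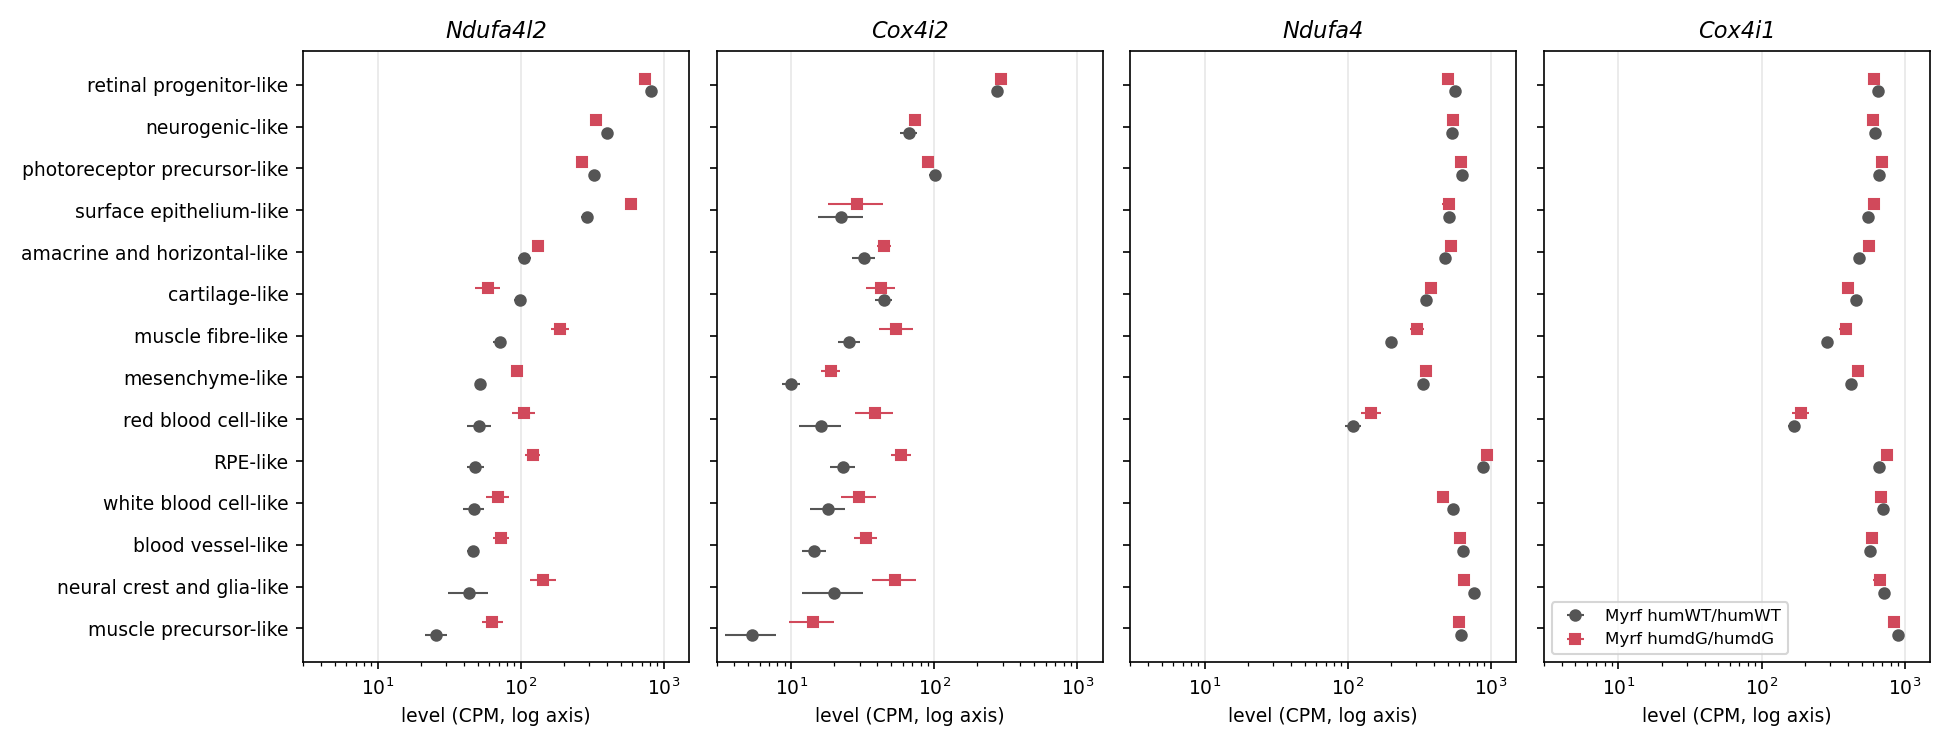
Level (CPM, log axis) of *Ndufa4l2*, *Cox4i2* and their common partners *Ndufa4* and *Cox4i1* in the 14 classes, for humWT/humWT (grey circles) and humdG/humdG (red squares), with 95% counting intervals. Both isoforms are highest in retinal progenitor-like cells, where the libraries lie close together, and are higher in humdG/humdG in most classes at low level. The partners differ less between the libraries in most classes, and *Ndufa4* is higher in humdG/humdG in muscle fibre-like and red blood cell-like cells among others.

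Over the 14 classes, the genes whose log2 level was most like that of *Ndufa4l2* were *Mgarp* (r = 0.91), *Gm11992* (r = 0.91) and *Igsf9* (r = 0.90), and *Cox4i2* reached r = 0.82 with it. Those most like *Cox4i2* were *Espn* (r = 0.96), *Dapl1* (r = 0.96) and *Gm26709* (r = 0.94). *Cox8a* was most like other members, with *Uqcr11* at r = 0.98, *Cox7b* at r = 0.97 and *Atp5l* at r = 0.97. These values describe 14 classes that share 2 libraries. In percentage points, other isoform shares differed among classes by less than those of *Ndufa4l2* and *Cox4i2*. *Atp5g2*, 1 of the genes for the c subunit of the ATP synthase, made up 59.7% and 59.3% of the Atp5g UMIs in retinal progenitor-like cells and 37.9% and 37.6% in RPE-like cells. *Cox6b2*, known as a testis form, made up 13.98% and 19.0% of Cox6b UMIs in the red blood cell-like class, from 39 and 29 UMIs, and 11.7% and 12.9% in neurogenic-like cells.

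Between the genotypes, the nuclear members of all cells together were slightly higher in humdG/humdG and the mitochondrial mRNAs lower. The nuclear sum was 19484 CPM in humWT/humWT and 21052 CPM in humdG/humdG, a log2 ratio of 0.11 (0.11 to 0.11). Of the 93 nuclear members 78 were higher, with a median log2 ratio of 0.12 beside 0.05 over all genes, so most of all genes were higher too. The mitochondrial mRNAs made up 4.03% of UMIs in humWT/humWT and 3.24% in humdG/humdG, a log2 ratio of −0.31 (−0.32 to −0.31), and 12 of 13 were lower. The libraries differed in their cells as well. The 8 clusters that took no name held 47.3% and 66.2% of all cells, and the largest of them, led by *Sncg* and *Cdk8*, 21.8% and 42.7%. Retinal progenitor-like cells were 4.05% and 6.14% of all cells, RPE-like cells 3.46% and 2.21%, and muscle fibre markers summed to 1045 and 441 CPM over all cells.

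At least 1.5-fold, in members with at least 100 UMIs, the nuclear members higher in all humdG/humdG cells were 2 of 92, *Cox4i2* and *Ndufa4l2*, where 11.2% of all genes tested were that much higher. *Cox4i2* was at 68.0 and 127 CPM (log2 ratio 0.90, 0.86 to 0.94) and *Ndufa4l2* at 197 and 331 CPM (log2 ratio 0.74, 0.72 to 0.77). The retinal progenitor markers, a list of 10 genes all with UMIs in both libraries, summed to 1598 and 3005 CPM over the same cells, and their part in the result was not tested. Lower by as much were *Cox6a2* and *Cox8b*, where 14.2% of all genes were lower, with *mt-Co3* and *mt-Nd4l* of the mitochondrial mRNAs. Other members with the highest ratio of their complex in all cells were *Ndufaf3* (0.40), *Uqcrfs1*, the iron-sulfur subunit of complex III (0.35), *Sdhb*, the iron-sulfur subunit of complex II (0.31), and *Atp5f1* (0.30). Those with the lowest ratio were *Uqcr10* (−0.11), *Ndufa6* (−0.09), *Sdhc* (−0.05), *Atp5d* (−0.03) and *Ndufaf5* (0.04).

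In RPE-like cells, the class in which *Myrf* was at its highest level, the nuclear members were slightly higher in humdG/humdG. The median log2 ratio over all genes there was slightly below 0. The nuclear sum went from 26849 to 30209 CPM (log2 ratio 0.17, 0.16 to 0.18). Of the 90 members with at least 20 UMIs, 79 were higher, with a median log2 ratio of 0.18 beside −0.06 over all genes. Of the 87 with at least 100 UMIs, 54 had an interval above 0, as had 14.7% of all genes, and 2 had one below 0, as had 21.5% of all genes. The mitochondrial share went from 4.97% to 4.58% (log2 ratio −0.12, −0.13 to −0.11), with 8 of 13 mRNAs below 0 and 1 above.

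RPE-like cells formed 2 clusters, a larger one of 487 and 386 cells and a small one of 73 and 15 cells in which the nuclear sum was only 6005 and 8553 CPM. In the larger cluster alone, the nuclear sum was 29536 and 30960 CPM (log2 ratio 0.07) and the median log2 ratio 0.08. When RPE cells were taken by a marker rule in place of clusters, which found 931 and 414 cells of which 393 and 264 were RPE-like, the median turned to −0.13. The mitochondrial share was lower in humdG/humdG in each of these ways of taking the cells, at −0.17 in the larger cluster and −0.43 by the marker rule.

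By complex, the median log2 ratio in RPE-like cells was 0.19 for complex I with 37 of 39 members higher, 0.13 for complex III with 7 of 8 higher, 0.19 for complex IV with 11 of 14 higher, and 0.18 for complex V with 16 of 17 higher. The median over all genes in these cells was below 0, as given above, so most of all genes were not higher. Complex II was at −0.07 with 2 of 4 higher, and the assembly factors of complex I at 0.09 with 6 of 8 higher. Among core subunits, *Ndufs1*, the largest iron-sulfur subunit of complex I, was at 66.5 and 52.7 CPM (−0.34, −0.65 to −0.03), and *Ndufv1*, the NADH-binding subunit, at 54.5 and 56.3 CPM. In complex II, *Sdhc*, a membrane anchor, was at 72.5 and 58.3 CPM (−0.31, −0.61 to −0.02), *Sdha* at 86.1 and 75.8 CPM, *Sdhb* at 118 and 122 CPM and *Sdhd*, the other anchor, at 121 and 135 CPM. *Ndufs1* and *Sdhc* were the 2 nuclear members with an interval below 0.

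In complex III, *Uqcrfs1* was at 122 and 153 CPM (log2 ratio 0.33, 0.13 to 0.52), *Uqcrc1*, a core subunit, at 74.1 and 79.0 CPM, and *Uqcr10* at 455 and 445 CPM. In complex IV, *Cox5a* was at 201 and 240 CPM (0.26, 0.10 to 0.41), *Cox6b1* at 440 and 549 CPM (0.32, 0.22 to 0.42), *Cox4i1* at 660 and 749 CPM (0.18, 0.10 to 0.27), and *Cox8a* at 1426 and 1459 CPM (0.03, −0.03 to 0.09). *Cox6a1*, at 206 and 202 CPM, had the lowest ratio of complex IV among members with at least 100 UMIs. These values take both RPE-like clusters together. In the larger cluster alone *Cox8a* was lower in humdG/humdG, at 1588 and 1501 CPM (−0.08, −0.14 to −0.02). In complex V, *Atp5f1*, a subunit of the peripheral stalk, was at 368 and 492 CPM (0.42, 0.31 to 0.53), whereas the catalytic subunits *Atp5b* and *Atp5a1* were at 378 and 432 CPM and at 299 and 286 CPM. The assembly factor *Ndufaf2* was at 36.1 and 51.1 CPM (0.50, 0.15 to 0.85) and *Ndufaf6* at 19.3 and 16.2 CPM (−0.25, −0.84 to 0.31).

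**Figure D3:**
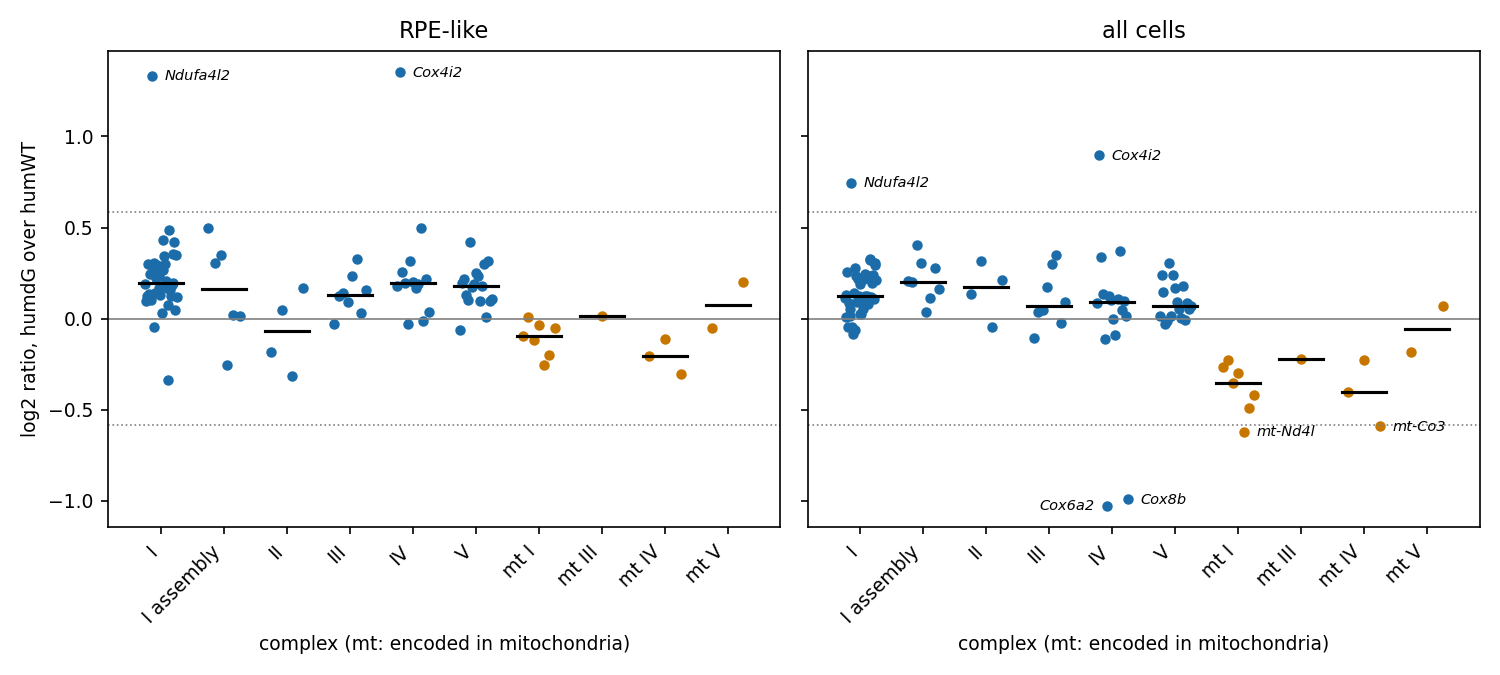
Log2 ratio of humdG/humdG over humWT/humWT for each member with at least 100 UMIs, by complex, in RPE-like cells (left) and all cells (right). Points are members, nuclear in blue and mitochondrial in orange, black bars are medians of the members, dotted lines mark 1.5-fold, and members beyond them are named.

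*Cox4i2* and *Ndufa4l2* were also the nuclear members at least 1.5-fold higher in RPE-like cells, 2 of 87, where 3.29% of all genes tested were that much higher, and 0 of 87 were that much lower, where 10.7% of all genes were. *Cox4i2* had 100 and 145 UMIs there (log2 ratio 1.35, 0.97 to 1.73) and *Ndufa4l2* had 209 and 299 UMIs (log2 ratio 1.33, 1.07 to 1.59). In the larger RPE-like cluster the ratios were 1.36 and 1.37. The retinal progenitor markers moved the same way in these cells, from 1024 to 1546 CPM in sum (log2 ratio 0.59, 0.53 to 0.66), with all 10 at a level above 0 in both libraries. Of them, *Fgf15* went from 13.8 to 51.9 CPM and *Dapl1*, among the genes most like *Cox4i2* over the classes, from 79.6 to 160 CPM. Both rose by more than the list as a whole. The list also holds *Ccnd1*, which the study names among the genes upregulated in the humdG/humdG RPE cluster. The part of these markers in both ratios was not tested.

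*Ndufa4l2* differed by class in direction. By its summed UMIs it was higher in humdG/humdG, with an interval above 0, in 10 of 14 classes and lower in 4. The red blood cell-like class gave it a log2 ratio of 1.04 (0.65 to 1.42) and that of *Cox4i2* was 1.26 (0.58 to 1.94), while the progenitor markers there summed to 494 and 934 CPM (log2 ratio 0.92). In muscle precursor-like cells *Ndufa4l2* was at 25.7 and 63.3 CPM (1.30, 0.94 to 1.66), with progenitor markers at 327 and 586 CPM. In retinal progenitor-like cells it was lower, at −0.15 (−0.19 to −0.10), as in neurogenic-like cells at −0.27 (−0.37 to −0.17) and photoreceptor precursor-like cells at −0.28 (−0.38 to −0.18). The progenitor markers in those 3 classes had log2 ratios of 0.15, 0.17 and 0.01. After thinning, the share of cells with an *Ndufa4l2* UMI was lower in retinal progenitor-like cells (52.5% and 47.7%) and neurogenic-like cells (26.0% and 22.9%). In photoreceptor precursor-like cells it was instead higher, at 13.5% and 19.5%. Surface epithelium-like cells, with the highest *Ndufa4l2* level outside the retinal classes, had 414 and 448 UMIs and a log2 ratio of 1.01 (0.82 to 1.21). Progenitor markers there summed to 790 and 1170 CPM (0.57) and red blood cell markers to 2185 and 5353 CPM (1.29), at a median depth of 7188 and 2316 UMIs, and their part in the ratio was not tested. *Cox4i2*, with enough UMIs in 10 classes, had an interval above 0 in 7 and below 0 in 0.

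Past 1.5-fold, *Ndufa4l2* and *Cox4i2* were the nuclear members higher in blood vessel-like cells (2.78% of all genes higher) and in mesenchyme-like cells (2.01%). *Ndufa4l2* alone was past it in muscle precursor-like cells (2.11%), neural crest and glia-like cells (2.25%) and surface epithelium-like cells (2.32%), and *Cox4i2* alone in white blood cell-like cells (5.28%). By summed UMIs, cartilage-like cells were past 1.5-fold in the other direction, with *Ndufa4l2* at 98.6 and 58.6 CPM (−0.75, −1.07 to −0.44). There 3.48% of all genes were lower by as much and 38.3% higher. Per cell the direction was the opposite. Cartilage-like cells with an *Ndufa4l2* UMI were 23.5% and 42.4%, and 8.62% (7.12 to 10.3) and 22.5% (15.8 to 30.3) after thinning. That class had 1258 and 139 cells, a median log2 ratio of 0.45 over all genes, and *Cox6b2* and *Ndufaf7* past 1.5-fold higher. No nuclear member was past 1.5-fold higher in neurogenic-like (1.79%), photoreceptor precursor-like (2.98%) or retinal progenitor-like cells (1.83%). In the red blood cell-like class 9 of 68 were past it (12.0%).

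*Cox7a2l* differed in a steadier way. It was at 178 and 230 CPM in all cells (log2 ratio 0.37, 0.34 to 0.40) and at 129 and 182 CPM in RPE-like cells (0.50, 0.32 to 0.68). Its interval lay above 0 in 11 of 14 classes and below 0 in 0 of 14. Other members came near this, with *Uqcrc2* above 0 in 10 classes and *Ndufb5* in 8, and both below 0 in 0. How many of all genes do so was not computed. The ratio of *Cox7a2l* was 0.36 in retinal progenitor-like cells, 0.56 in amacrine and horizontal-like cells and 0.68 in muscle fibre-like cells, and in cartilage-like cells it was −0.20 (−0.42 to 0.02). Its level was highest in muscle precursor-like cells, at 327 and 359 CPM. The genes most like it over the 14 classes were *Eif3f* (r = 0.96), *Btf3* and *Eif3h*, which act in translation.

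The muscle isoforms *Cox6a2* and *Cox8b* had few UMIs in every class. In all cells *Cox6a2* had 420 and 185 UMIs, 3.50 and 1.72 CPM (log2 ratio −1.03, −1.29 to −0.78), and *Cox8b* had 390 and 176 UMIs, 3.25 and 1.63 CPM (−0.99, −1.26 to −0.73). The muscle fibre markers, 11 genes all with UMIs, summed to 1045 and 441 CPM in all cells and to 817 and 282 CPM in RPE-like cells, and their part in these ratios was not tested. In muscle precursor-like cells both isoforms were higher in humdG/humdG, *Cox6a2* with 21 and 31 UMIs (1.62, 0.78 to 2.50) and *Cox8b* with 37 and 44 UMIs (1.31, 0.65 to 1.98). Few cells carried these UMIs, since 12 of 256 and 5 of 122 cells had a *Cox6a2* UMI, 4.69% and 4.10%, and 23 and 10 cells had a *Cox8b* UMI. The muscle fibre markers summed to 1297 and 2447 CPM in that class (log2 ratio 0.92), and their part in both ratios was not tested. *Cox6a2* made up 2.09% and 7.29% of Cox6a UMIs in that class, 8.74% and 3.23% in muscle fibre-like cells, 7.93% and 1.20% in the red blood cell-like class and 4.92% and 1.57% in cartilage-like cells, so that in humWT/humWT the muscle precursor-like share was below that of non-muscle classes. *Cox7a1*, known as the heart and muscle form of Cox7a, was instead highest in RPE-like cells of humWT/humWT, with 67 UMIs at 15.4 CPM, against 16 UMIs at 6.48 CPM in humdG/humdG (−1.25, −2.14 to −0.45). It made up 3.20% and 1.20% of Cox7a UMIs there and 1.45% and 0.307% in muscle fibre-like cells.

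Muscle fibre-like cells had the largest nuclear ratio of the 14 classes. The nuclear sum was 9529 CPM in humWT/humWT and 14771 CPM in humdG/humdG (log2 ratio 0.63, 0.61 to 0.66), 88 of 91 members were higher, and 55 of 83 were at least 1.5-fold higher, where 22.9% of all genes were. The median log2 ratio was 0.65 beside 0.27 over all genes, so most of all genes were higher in this class too. The ratio of the sum became 0.36 with median-ratio scaling and 0.42 without ribosomal-RNA-linked genes. It became 0.27 in libraries merged without integration, where the muscle fibre-like class was another set of cells, 5695 and 420 of them. *Cox5a* was at 82.9 and 192 CPM, *Ndufa1* at 71.2 and 154 CPM and *Cox8a* at 279 and 443 CPM. These are shallow cells, with a median of 2869 and 1926 UMIs, and the class held 1638 and 498 cells. Red blood cell markers summed to 11463 and 19072 CPM and retinal progenitor markers to 988 and 2044 CPM in it, while its own markers were at 5377 and 5223 CPM, and their part in the result was not tested.

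Amacrine and horizontal-like cells had the next largest ratio of the nuclear sum (17586 and 21242 CPM, 0.27, 0.26 to 0.29). The interval lay above 0 for 75 of 89 members and for 20.7% of all genes, and below 0 for 0 members and for 18.5% of all genes. Muscle fibre markers summed to 1054 and 229 CPM in this class (log2 ratio −2.20), RPE markers to 328 and 151 CPM (−1.11) and retinal progenitor markers to 1053 and 1467 CPM (0.48), and their part in the result was not tested. There *Uqcrc1* and *Uqcrfs1* of complex III were at least 1.5-fold higher, where 3.79% of all genes were. In retinal progenitor-like cells the nuclear members leaned the other way, from 25042 to 23580 CPM (−0.09, −0.09 to −0.08), and the median of −0.08 lay near the −0.05 over all genes. The interval lay below 0 for 44 of 89 members, beside 18.1% of all genes, and above 0 for 11, beside 9.36% of all genes. Without doublet removal the ratio of the sum was 0.016, but there the class also took in a cluster of 1328 and 2080 cells. Photoreceptor precursor-like cells were at 23386 and 23365 CPM (0.00, −0.01 to 0.01). Over the 14 classes, the interval of the nuclear sum lay above 0 in 8 and below 0 in 4. By the sign of the sum 9 were higher, and 8 to 12 were under the 7 alternatives tried.

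The mitochondrial share was lower in humdG/humdG in 12 of 14 classes, and in 11 to 13 under the same alternatives. Its log2 ratio was −0.84 in cartilage-like cells, −0.72 in the red blood cell-like class, −0.43 in retinal progenitor-like cells and −0.21 in photoreceptor precursor-like cells. In the last class the median share per cell was instead slightly higher in humdG/humdG, as given above. The share was higher in surface epithelium-like cells, at 4.60% and 4.83%, and in amacrine and horizontal-like cells, at 3.80% and 3.85%, but both turned under other processing, to −0.081 under 10% mitochondrial UMIs and to −0.034 without ribosomal-RNA-linked genes. At least 1.5-fold lower were *mt-Co3*, *mt-Nd4l* and *mt-Nd5* in retinal progenitor-like cells (4.08% of all genes lower), 8 of 13 mRNAs in cartilage-like cells (3.48%), and 10 of 13 in the red blood cell-like class (17.3% of all genes lower). Red blood cell markers summed to 471744 and 569021 CPM in that last class (log2 ratio 0.27). Their rise lowers the share of every other gene there, and the ratios without them were not computed. Past 1.5-fold lower were also *mt-Co3*, *mt-Nd4l* and *mt-Nd6* in mesenchyme-like cells (3.84%) and 3 mRNAs in muscle fibre-like cells (6.14%). *mt-Nd4l* alone was past it in neural crest and glia-like (7.75%), neurogenic-like (4.21%), photoreceptor precursor-like (5.71%) and white blood cell-like cells (5.45%). In blood vessel-like (5.43%), muscle precursor-like (3.04%), surface epithelium-like (6.67%) and amacrine and horizontal-like cells (8.0%), 0 members of either genome were lower by as much.

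Within the mitochondrial mRNAs, 3 differed in their share of mitochondrial UMIs in the same direction in all 14 classes. In all cells, *mt-Co3*, a core subunit of complex IV, made up 17.0% of mitochondrial UMIs in humWT/humWT and 14.03% in humdG/humdG (log2 ratio −0.28, −0.28 to −0.27). *mt-Nd4l*, a membrane subunit of complex I, went from 2.35% to 1.90% (−0.31, −0.32 to −0.29), and *mt-Atp8*, a membrane subunit of complex V, from 0.847% to 1.10% (0.38, 0.36 to 0.40). In RPE-like cells the shares were 16.9% and 14.9% for *mt-Co3*, 2.35% and 2.13% for *mt-Nd4l*, and 0.793% and 0.991% for *mt-Atp8*. The interval lay below 0 in 14 of 14 classes for *mt-Co3*, with log2 ratios from −0.40 to −0.14, and for *mt-Nd4l*, from −0.53 to −0.14, and above 0 in 14 of 14 for *mt-Atp8*, from 0.20 to 0.49. *mt-Nd5* was lower in 10 classes and higher in 0, and *mt-Atp6* was higher in 12 and lower in 1.

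The 3 mRNAs have neighbours that they touch or overlap on the mitochondrial genome of GRCm38. *mt-Atp8* (chrM:7766-7969) overlaps *mt-Atp6* (chrM:7927-8607), which meets *mt-Co3* (chrM:8607-9390), and *mt-Nd4l* (chrM:9877-10173) overlaps *mt-Nd4* (chrM:10167-11544), so reads in the shared bases cannot be assigned to 1 gene. *mt-Atp8* with *mt-Atp6*, and *mt-Nd4l* with *mt-Nd4*, are known to stay on joint transcripts. *mt-Atp6* itself made up 21.0% and 23.0% of mitochondrial UMIs in all cells. In absolute level, *mt-Atp8* was at 394 and 453 CPM in RPE-like cells (0.20, 0.09 to 0.31), the 1 mitochondrial mRNA with an interval above 0 there, beside *mt-Co3* at 8410 and 6819 CPM (−0.30, −0.33 to −0.28), *mt-Nd4l* at 1167 and 976 CPM, *mt-Co1* at 6997 and 6063 CPM, *mt-Co2* at 8432 and 7805 CPM and *mt-Nd5* at 1329 and 1155 CPM. *mt-Cytb* (5666 and 5725 CPM) and *mt-Nd2* (2446 and 2460 CPM) had intervals over 0, as had *mt-Nd4* (3029 and 2958 CPM) and *mt-Nd6* (78.5 and 75.8 CPM). *mt-Nd1* was at 1856 and 1735 CPM, *mt-Nd3* at 917 and 845 CPM and *mt-Atp6* at 9021 and 8686 CPM.

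**Figure D4:**
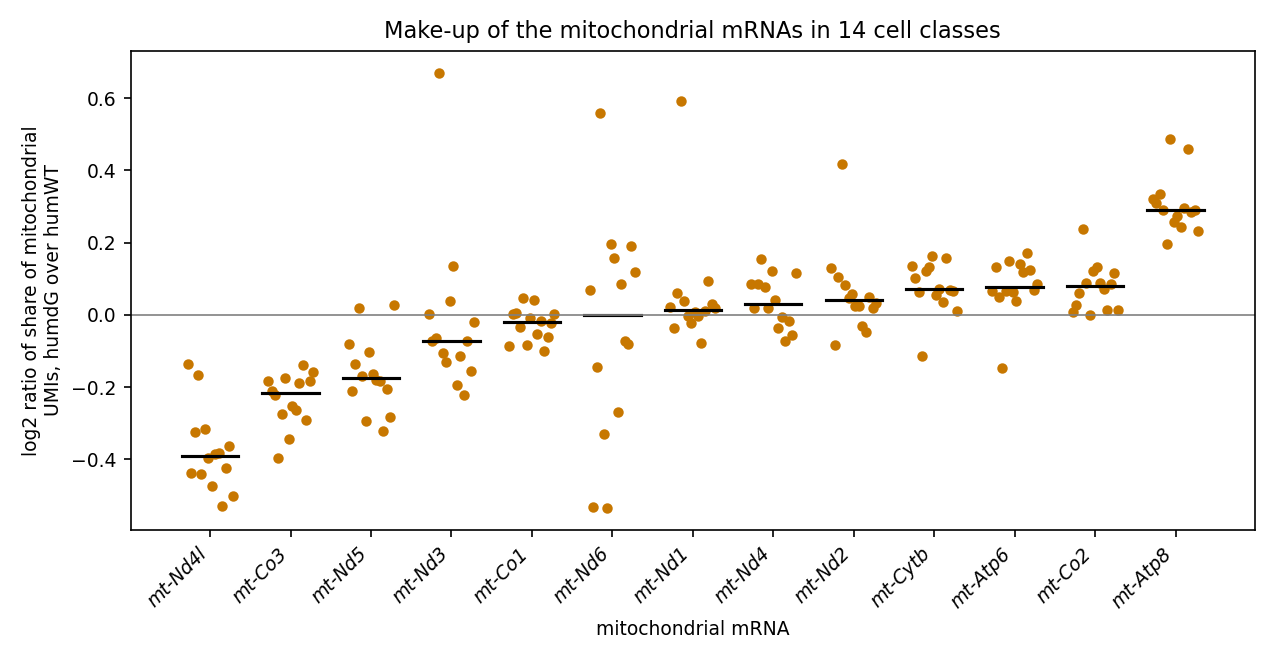
Log2 ratio of humdG/humdG over humWT/humWT for the share that each of the 13 mitochondrial mRNAs takes of all mitochondrial UMIs, 1 point per class, with the median over 14 classes as a black bar. All 14 points lie below 0 for *mt-Nd4l* and *mt-Co3* and above 0 for *mt-Atp8*, and the lone high points of *mt-Nd1*, *mt-Nd2* and *mt-Nd3* are cartilage-like cells.

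Other genes of the pathway were counted from lists that hold no member. In RPE-like cells, where the median log2 ratio over genes with at least 100 UMIs was −0.05, the carriers and mobile parts had 8 of 8 genes above 0 with a median of 0.31. Among them, *Slc25a5*, an ADP/ATP carrier, was at 201 and 282 CPM, *Cycs*, cytochrome c, at 163 and 209 CPM, and *Slc25a3*, the phosphate carrier, at 348 and 430 CPM. The mitochondrial ribosome had 66 of 74 genes above 0 with a median of 0.23, and *Mrpl44*, *Mrpl23*, *Mrps22* and *Mrpl39* were at least 1.5-fold higher, 4 of 74 beside the 3.29% of all genes. The assembly factors of other complexes had 14 of 20 above 0 with a median of 0.10, and the citric acid cycle with pyruvate dehydrogenase had 7 of 16 above 0 with a median of −0.02. Of the genes for mitochondrial gene expression and biogenesis, 5 of 8 were above 0 with a median of 0.04, and *Ppargc1a*, a coactivator of these genes, was at least 1.5-fold lower, as were 10.7% of all genes. In all cells the medians of the 5 lists lay between 0.14 and 0.22 beside 0.06 over all genes, with *Ppargc1a*, *Ppargc1b* and *Ucp2* past 1.5-fold lower, as were 14.2% of all genes.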

How the data were processed

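Single-cell RNA was measured in 1 library per genotype. The authors deposited matrices of UMI counts without normalization, made with Cell Ranger 7.1.0. The submitters' processing notes also name Seurat 4.1.1 and the build mm10, and whether intron reads were counted is not given in the sources used here. Counts in Cell Ranger use reads that map to 1 gene, so members with near-identical pseudogene copies are uncertain.

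Barcodes with over 500 genes and under 15% mitochondrial UMIs were kept, and the 5% with the highest Scrublet scores (scanpy 1.11.5) were removed, because its own threshold called 1 and 0 cells. Lost to these steps were 136 and 178, 268 and 258, and 851 and 956 barcodes. The libraries hold more barcodes than the cells counted in the study's text. Cells were integrated and clustered in Seurat 5.3.0 (R 4.3.3) over 20 dimensions at a resolution of 0.5, on 2000 variable genes from which members and other mt- genes were kept out. A class name needed at least 3 markers, and at least 50% of the class's list, raised 2 times in at least 10% of cells, with 1 among the 20 leading genes. This rule was tightened after seeing the data.

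For each class and library, the UMIs of its cells were added up and expressed as CPM. Ratios have exact conditional binomial intervals, levels exact Poisson and shares exact Clopper-Pearson intervals (scipy 1.17.1, numpy 2.4.6, pandas 2.3.3). Past 1.5-fold was read only in genes with at least 100 UMIs in the class. Ratio intervals were tested on simulated data. No test between genotypes was made. Genes named are the mitochondrial mRNAs, tissue isoforms with their partners, core subunits, the highest and lowest ratio of each complex with at least 100 UMIs, those past 1.5-fold and the 5 most variable among classes, with the 3 genes most like an isoform. A core subunit that this rule names is not reported here. Members and lists were chosen with earlier results of these data known. Figures were drawn with matplotlib 3.10.9.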

Additional observations from a re-analysis of the deposited data

Results flagged for a closer look

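The results given here are classes whose ratio between the libraries had the opposite sign to that of other classes, each with a counting interval apart from 0. The difference between classes was not tested, since each genotype has 1 library. For the mitochondrial share, 2 classes were higher in humdG/humdG while 12 were lower, amacrine and horizontal-like cells with a log2 ratio of 0.021 and surface epithelium-like cells with 0.071. The first turned to −0.034 without ribosomal-RNA-linked genes and −0.0021 without doublet removal, and the second to −0.081 under 10% mitochondrial UMIs. Photoreceptor precursor-like cells turned from −0.21 to 0.047 when thinned. For the summed nuclear members, 4 classes were lower in humdG/humdG while 8 were higher, muscle precursor-like cells at −0.038, neural crest and glia-like cells at −0.049, retinal progenitor-like cells at −0.087 and white blood cell-like cells at −0.059. Of these 4, muscle precursor-like cells kept their direction in all 7 alternatives tried. Neural crest and glia-like cells turned in 2, to 0.028 when thinned and 0.030 with median-ratio scaling, white blood cell-like cells to 0.107 when thinned, and retinal progenitor-like cells to 0.016 without doublet removal. In that last case the retinal progenitor-like class also took in another cluster, of 1328 and 2080 cells. Of the 8 higher classes, cartilage-like cells, at 0.095, turned to −0.35 with median-ratio scaling and −0.15 without ribosomal-RNA-linked genes.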

How the results depend on the processing

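No paired analysis was possible because each genotype has 1 library. No replicate could be left out for the same reason. All ratios are log2, and the cause of each move was not tested. In all cells, the nuclear median of 0.12 became 0.29 in cells thinned to 1000 UMIs, 0.066 with median-ratio scaling and 0.18 without the 1% of deepest cells. The mitochondrial ratio of −0.31 became −0.37 under 10% mitochondrial UMIs and −0.37 with median-ratio scaling, −0.27 with no limit on mitochondrial UMIs, −0.33 without the largest unnamed cluster, −0.31 when thinned, −0.33 without ribosomal-RNA-linked genes and −0.28 without the deepest cells. In RPE-like cells, the nuclear median of 0.18 became 0.081 in libraries merged without integration, −0.13 by the marker rule, where the median of all genes was 0.22, 0.23 with median-ratio scaling and 0.075 in the larger cluster alone. The mitochondrial ratio of −0.12 became −0.021 under 10% mitochondrial UMIs, −0.15 at a resolution of 1.0, −0.18 merged, −0.43 by the marker rule, −0.15 thinned, −0.065 with median-ratio scaling, −0.16 without the deepest cells and −0.17 in the larger cluster.

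Ratios between classes within a library moved as well. Retinal progenitor-like over RPE-like, *Ndufa4l2* went from 4.09 to 3.45 in humWT/humWT and from 2.61 to 1.93 in humdG/humdG (2.42 without the deepest cells), and *Cox4i2* from 3.58 to 3.93 and from 2.33 to 1.48. RPE-like over retinal progenitor-like, *Cox8a* in humWT/humWT went from 0.91 to 0.38 thinned, 0.86 at a resolution of 1.0, 1.06 merged and 0.97 under 10% mitochondrial UMIs, and in humdG/humdG from 1.03 to 0.57 thinned, 0.93 at a resolution of 1.0 and 1.10 merged. The nuclear sum in humWT/humWT went from 0.10 to −0.20 thinned, 0.059 at a resolution of 1.0, 0.23 merged and 0.15 under 10% mitochondrial UMIs, and in humdG/humdG from 0.36 to 0.078 thinned, 0.30 at a resolution of 1.0, 0.41 merged, 0.38 under 10% mitochondrial UMIs and 0.38 without the deepest cells. The mitochondrial share, photoreceptor precursor-like over retinal progenitor-like, in humWT/humWT went from 1.29 to 0.95 thinned, 1.30 at a resolution of 1.0, 1.31 merged, 1.10 under 10% mitochondrial UMIs and 1.35 without the deepest cells, and in humdG/humdG from 1.51 to 1.37 thinned, 1.53 merged, 1.30 under 10% mitochondrial UMIs and 1.53 without the deepest cells. Leaving out the deepest cells, leaving out barcodes found in both libraries and the larger RPE-like cluster alone were chosen after seeing the data. Allowing members among the variable genes changed nothing, since 0 of them were among the 2000 chosen. With 1 library per genotype, the depth limits counting error only, and the spread between embryos is not known.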
